A study of Mus musculus with 6 samples.

Results

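Bipolar, amacrine and horizontal cells are the interneurons of the retina, and 37 genes that mark them were examined in mouse retinas at postnatal day (P) 8 with and without Lrp5, a co-receptor for Wnt ligands and Norrin. The genes were a fixed list of 16 bipolar genes and 21 amacrine and horizontal genes, taken with every probe annotated to their symbols, among 19057 genes on the array with 1 symbol. Whole retinas of 3 mice labelled as Lrp5 knockouts (strain B6.129P2-Lrp5tm1Dgen/J) were compared with those of 3 age-matched wild type (WT) mice of strain C57BL/6J, each retina sample on its own Illumina Mouse-WG6 BeadChip array. The allele is carried in all tissues, the 2 strains were kept as separate stocks, and no littermate controls are named. Because whole retinas were used, fewer cells of a type and less RNA per cell cannot be told apart in any value that follows.

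Bipolar cells carry signals from rods and cones to the inner retina. ON bipolar cells respond to glutamate through a metabotropic receptor that acts through a G protein to close a cation channel, so that the cells depolarise when light lowers glutamate release, while OFF bipolar cells use ionotropic receptors. Horizontal cells feed back on photoreceptors, and amacrine cells shape the output of bipolar cells, mostly through GABA or glycine. In the mouse, horizontal and amacrine cells are born before birth and in the first days after it, while rods and bipolar cells are among the last neurons to form and mature after the first postnatal week.

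Signals are the normalized fluorescence of a probe, in arbitrary units and without background subtraction, and a probe counted as expressed where its detection p-value was under 0.05 on at least 3 of 6 arrays. Probes below detection had a median signal of 46.9 to 49.2, so values near 50 cannot be told from background. Before normalization, WT replicate 1 was the dimmest array and WT replicate 2 the brightest, with mean signals of 200 and 431 against 304 to 319 on the remaining 4 arrays. On WT replicate 1, 18167 probes were detected, against 20286 to 21388 on the others. Of the 4 Lrp5 probes, 3 were not detected on any array, and the signal of the other was 46.8, 59.5 and 56.1 in WT and 99.2, 91.3 and 95.7 in the retinas labelled Lrp5-/-. It was detected on 1 of 3 WT arrays and 3 of 3 Lrp5-/- arrays. Since WT was at or near background, these probes could not show a loss of the targeted transcript and do not check the genotype, and where the detected probe lies relative to the altered part of the gene was not determined. Lrp5-/- below means a retina that carries that label.

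Most of the interneuron genes were already expressed at P8. Of the 37 genes, 34 had a probe under their symbol (70 probes, 52 of them expressed and 49 detected on all 6 arrays), and 30 of the 34 (88.2%) were expressed, against 11097 of 19057 genes overall (58.2%). All 14 bipolar genes with a probe were expressed, and 16 of the 20 amacrine and horizontal genes. Lists of markers of other retinal cells gave 87.5% for rod, 85.7% for ganglion cell, 100% for Müller glia and 50% for astrocyte genes. A high share was thus not particular to interneuron genes. Onecut1, Bhlhe22 and Cabp5 were not analysed here. The 4 genes below detection were Th, which makes the rate-limiting enzyme of dopamine synthesis in a rare amacrine type, Calb1, the calbindin that fills horizontal cells, and the transcription factor genes Nhlh2 and Barhl2. Their signals over the 6 arrays lay between 44.5 and 51.1 for Th, between 38.3 and 43.4 for Calb1, between 35.1 and 46.0 for Nhlh2 and between 36.2 and 52.8 for Barhl2. A low signal from 1 probe does not separate a silent gene from a probe that binds poorly, and levels were not compared between probes. Calb1 was thus not seen although it defines horizontal cells, while the horizontal cell factor genes Prox1, Lhx1 and Onecut2 were detected on all 6 arrays.

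None of the 30 expressed genes passed the test of Lrp5-/- against WT. The smallest adjusted p among them was 0.987 (limma with Benjamini-Hochberg adjustment over 20721 expressed probes), where 0.189% of all expressed genes (21 of 11097) had an adjusted p under 0.05, 0.144% of them lower and 0.0451% higher in Lrp5-/-. Of the 52 probes of these genes none passed either, beside 0.116% of all expressed probes. At an unadjusted p under 0.05 there was 1 gene, Vsx1, on the higher side, beside 5.02% of all genes (2.94% lower and 2.08% higher), and 1 of the 52 probes, beside 4.85% of all probes. The 3 samples of each group did not overlap for 4 of the 30 genes, Prox1, Chat and Grm6 with lower and Vsx1 with higher signals in Lrp5-/-, where 10.8% of all genes had groups that did not overlap (5.7% lower and 5.15% higher). Counted by probe, these were 4 of 52, beside 10.7% of all probes. For 27 of the 30 genes the 95% interval of the log2 fold change lay within 0.5 of zero on both sides, and the exceptions were Trpm1, Gng13 and Pcp2. The median log2 fold change was 0.0028 over the bipolar genes and -0.0421 over the amacrine and horizontal genes, beside -0.0071 over all expressed genes. An exact permutation test of 3 against 3 mice cannot give a two-sided p below 0.1.

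**Figure D1:**
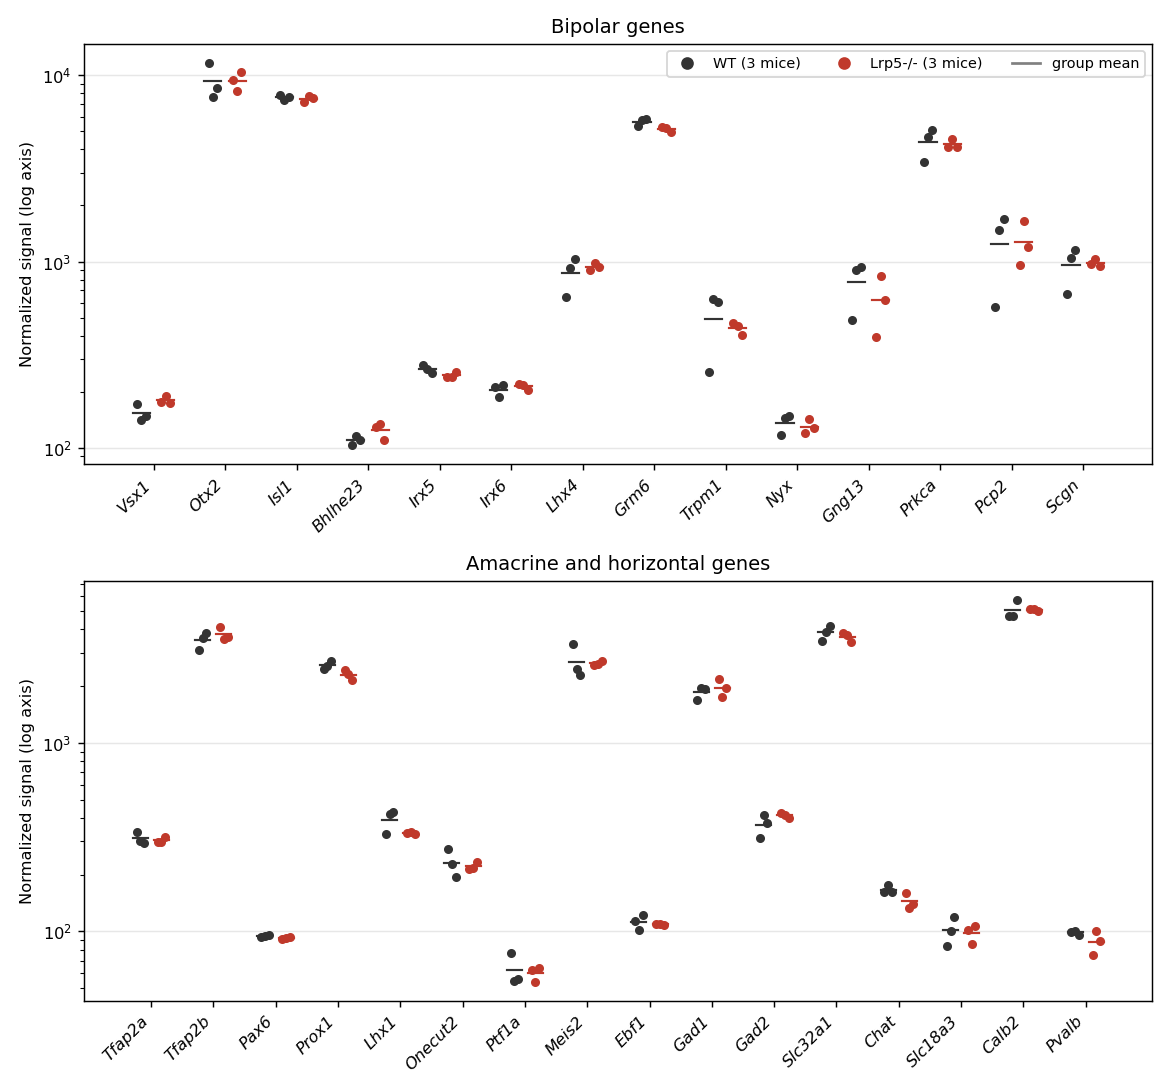
Normalized signal (log axis, arbitrary units) of the 30 expressed genes on each of the 6 arrays, with 1 probe per gene (that with the highest mean log2 signal), WT in black and Lrp5-/- in red, and a line at each group mean. The groups overlap for 26 genes, and the lowest WT points of Trpm1, Pcp2, Scgn, Lhx4 and Prkca all belong to WT replicate 1.

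**Figure D2:**
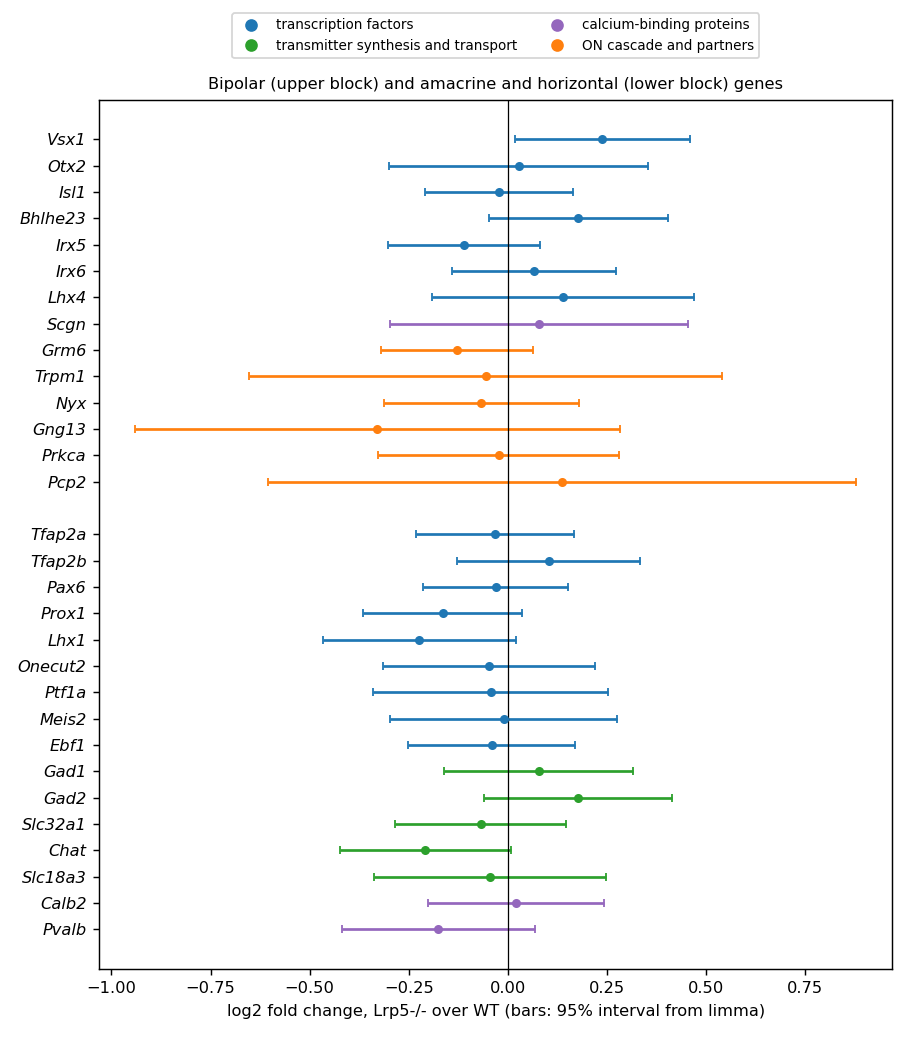
Log2 fold change of Lrp5-/- over WT for the same 30 genes, coloured by role, with 95% intervals from limma (3 mice per group). The interval of Vsx1 alone leaves out zero, and those of Trpm1, Gng13 and Pcp2 are the widest.

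The ON bipolar cascade was represented by its receptor, its channel and their partners, and all 6 of these genes were expressed. Among all 30 expressed genes, the widest spread was in 3 of them, Trpm1, Pcp2 and Gng13, whose spread within groups on the log2 scale lay at percentiles 99.5, 99.7 and 99.6 of all expressed genes. All 3 were low on WT replicate 1 and higher on the other WT arrays, while over the Lrp5-/- arrays Trpm1 did not follow Gng13 and Pcp2. For these genes the 250 bases before their annotated start sites are printed here, read from RefSeq on build GRCm38.p6, 5′ to 3′ on the strand of each gene. They run over chr7:64153585-64153834 (plus strand) for Trpm1, chr8:3625548-3625797 (minus strand) for Pcp2 and chr17:25716922-25717171 (plus strand) for Gng13. Capitals mark a match to TAATCC on either strand, the letters preferred by the homeodomains of Otx2 and its relative Crx.
Trpm1: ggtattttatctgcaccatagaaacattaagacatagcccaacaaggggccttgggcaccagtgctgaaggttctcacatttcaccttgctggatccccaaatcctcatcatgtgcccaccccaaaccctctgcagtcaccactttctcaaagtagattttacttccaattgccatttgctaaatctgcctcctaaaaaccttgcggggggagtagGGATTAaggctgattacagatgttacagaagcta
Pcp2: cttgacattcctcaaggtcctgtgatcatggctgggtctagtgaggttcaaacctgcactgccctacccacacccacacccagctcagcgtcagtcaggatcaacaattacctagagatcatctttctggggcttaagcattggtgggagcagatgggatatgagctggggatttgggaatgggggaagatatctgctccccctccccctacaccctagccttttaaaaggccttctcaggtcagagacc
Gng13: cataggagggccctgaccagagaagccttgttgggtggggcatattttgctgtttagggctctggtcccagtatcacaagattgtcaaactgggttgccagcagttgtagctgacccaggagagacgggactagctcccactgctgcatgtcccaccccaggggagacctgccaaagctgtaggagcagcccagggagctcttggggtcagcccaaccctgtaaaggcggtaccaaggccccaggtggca
The match in Trpm1 was on the opposite strand and began 34 bases before the start, and Pcp2 and Gng13 held none. Both motifs searched, TAATCC and the homeodomain core TAATTA, were read on both strands in the same windows of 31 of the 37 genes found in the promoter table. TAATCC stood in 4 of the 31 (Cabp5, Gad1, Isl1 and Trpm1) and in 6.37% of 27025 genes, and TAATTA in 2 of the 31 (Otx2 and Tfap2a) and in 4.91% of all genes. A match is a description of the letters and not a binding site.

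Grm6 encodes the metabotropic glutamate receptor mGluR6, with which ON bipolar dendrites sense the photoreceptor transmitter. Its signal was 5356, 5719.8 and 5791 in WT and 5271, 5212 and 4942 in Lrp5-/-. The groups did not overlap, with all 3 Lrp5-/- retinas below the lowest WT retina, and the difference was small (log2 fold change -0.13 ± 0.09 (SE), n = 3 per group, unadjusted p = 0.166, limma). Trpm1, the cation channel that this receptor closes, had signals of 255, 626 and 603 in WT and 470.3, 449.9 and 404 in Lrp5-/-. WT replicate 1 lay below every Lrp5-/- retina and WT replicates 2 and 3 above every one of them, so the mean difference was close to zero (log2 fold change -0.06, 95% interval -0.65 to 0.54). A second expressed Trpm1 probe gave 163, 303 and 355 in WT and 267, 251 and 183 in Lrp5-/-, with the same WT replicate lowest. Nyx encodes nyctalopin, a leucine-rich repeat protein that holds Trpm1 at the dendritic tips. Its signals were 118, 145 and 148 in WT and 120.2, 142 and 128 in Lrp5-/-, with overlapping groups (log2 fold change -0.07 ± 0.11 (SE)).

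Gng13 and Pcp2 act at the G protein of the same cascade, Gng13 as a gamma subunit and Pcp2 as a modulator of the alpha subunit. The Gng13 signal was 487, 902 and 935 in WT and 395, 841 and 624 in Lrp5-/-. The lowest and the highest Lrp5-/- retina differed 2.13-fold, and the WT retinas 1.92-fold, a similar spread around a lower level in Lrp5-/-, with widely overlapping groups (log2 fold change -0.33, 95% interval -0.94 to 0.28). For Pcp2 the signals were 571, 1473 and 1694 in WT and 959, 1655 and 1192 in Lrp5-/-. The WT retinas differed 2.97-fold among themselves, more than those of any other of the 30 genes, and the interval of the log2 fold change was -0.60 to 0.88 around 0.14. Prkca, the protein kinase C alpha that marks rod bipolar cells, had signals of 3403, 4675 and 5104 in WT and 4126, 4556 and 4117 in Lrp5-/-, with the Lrp5-/- retinas inside the WT range (log2 fold change -0.02 ± 0.14 (SE)). Over the 6 genes of the cascade the median log2 fold change was -0.0619, with 5 below zero and 1 above.

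Among the other bipolar genes, Scgn encodes secretagogin, a calcium-binding protein of cone bipolar cells. Its signals were 666, 1049.7 and 1156 in WT and 975, 1031 and 945 in Lrp5-/-. WT replicate 1 was again the lowest of the 6 arrays, and the other retinas lay within a narrow band (log2 fold change 0.08 ± 0.17 (SE)). The other Scgn probes gave 515, 808 and 761 in WT with 685, 769 and 732 in Lrp5-/-, and 666, 1051 and 1132 in WT with 989, 1113 and 831 in Lrp5-/-, so that all 3 expressed probes were lowest on WT replicate 1.

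All 7 bipolar transcription factor genes with a probe were expressed, and their median log2 fold change was 0.0656, with 2 below zero and 5 above. Vsx1, a homeodomain factor needed for the maturation of some cone bipolar types, had signals of 172, 141 and 147.5 in WT and 177, 189 and 175 in Lrp5-/-. All 3 Lrp5-/- retinas lay above the highest WT retina, by a small margin (log2 fold change 0.24 ± 0.10 (SE), n = 3 per group, unadjusted p = 0.0363, adjusted p = 0.987, limma). The second expressed Vsx1 probe gave 106, 115 and 125 in WT and 128, 147 and 118.5 in Lrp5-/-, where the groups overlapped and the log2 fold change was 0.18.

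Lhx4, a LIM homeodomain factor of bipolar and cone cells, had signals of 643.5, 929 and 1031 in WT and 899, 976 and 938 in Lrp5-/-. As with Scgn, WT replicate 1 was the lowest, and the remaining WT retinas lay among or above the Lrp5-/- retinas (log2 fold change 0.14 ± 0.15 (SE)). Otx2, a homeodomain factor that sets photoreceptor fate and is kept in bipolar cells, went the other way on that array, with signals of 11616, 7650.0 and 8558 in WT and 9419, 8219 and 10401 in Lrp5-/- (log2 fold change 0.03 ± 0.15 (SE)). Isl1, needed by ON bipolar cells and also made by ganglion and cholinergic amacrine cells, varied little, between 7224 and 7802 over the 6 arrays (log2 fold change -0.02 ± 0.08 (SE)). Bhlhe23, a factor for the maturation of rod bipolar cells, lay between 103 and 116 in WT and between 109.7 and 134 in Lrp5-/- (log2 fold change 0.18 ± 0.10 (SE)). The Iroquois factor genes Irx5 and Irx6 mark OFF cone bipolar types. Irx5 lay between 251 and 277 in WT and between 239.5 and 254 in Lrp5-/-, and Irx6 between 187 and 216 in WT and between 204 and 221 in Lrp5-/- (log2 fold changes -0.11 ± 0.09 (SE) and 0.07 ± 0.09 (SE)). Both pairs of ranges overlapped.

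No amacrine or horizontal gene had an interval as wide as those of Trpm1, Gng13 and Pcp2, and every 95% interval of their log2 fold changes lay between -0.47 and 0.41. Of the 16 expressed genes, 12 were below zero and 4 above, where 53% of all genes were below zero. Among the transcription factor genes, 8 of 9 were below zero, with a median log2 fold change of -0.0411, but without WT replicate 1 they were 4 of 9, with a median of 0.0198. Tfap2a and Tfap2b, AP-2 factors of amacrine and horizontal precursors, gave 296 to 336 in WT and 299 to 315 in Lrp5-/-, and 3125 to 3820.2 in WT and 3540.1 to 4118 in Lrp5-/-. Pax6, kept in amacrine and ganglion cells after its role in progenitors, was the narrowest, with 92.9 to 95.8 in WT and 91.6 to 93.5 in Lrp5-/-. Ptf1a, the factor that directs precursors to horizontal and amacrine fates, was near background with 54.7 to 76.9 in WT and 53.9 to 63.9 in Lrp5-/-, and it was detected on 3 of 6 arrays.

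Prox1, a homeodomain factor of horizontal cells and AII amacrine cells, had signals of 2471, 2548 and 2735 in WT and 2423, 2329 and 2168 in Lrp5-/-. The groups did not overlap (log2 fold change -0.16 ± 0.09 (SE), n = 3 per group, unadjusted p = 0.0974, limma). The other expressed Prox1 probe turned the direction, with 116, 146 and 158.5 in WT and 143, 159 and 178 in Lrp5-/- (log2 fold change 0.20). Lhx1, which places horizontal cells in their layer, gave 329, 419.5 and 428 in WT and 334.5, 336 and 330.3 in Lrp5-/-. The Lrp5-/- retinas were nearly equal and lay just above WT replicate 1 and below the other WT retinas (log2 fold change -0.22 ± 0.11 (SE), unadjusted p = 0.0681, limma). The second expressed Lhx1 probe did not show this pattern. It gave 158.3, 137.8 and 177.9 in WT and 161.1, 138.3 and 146.9 in Lrp5-/- (log2 fold change -0.08 ± 0.11 (SE)). Onecut2, a horizontal cell determinant, ranged from 193 to 273 in WT and from 215 to 232 in Lrp5-/-. Meis2, a factor of GABAergic amacrine cells, ranged from 2294 to 3335 in WT and from 2576 to 2721.5 in Lrp5-/-, and Ebf1, of other amacrine types, from 101 to 123 and from 109 to 109.4. The log2 fold changes of Onecut2, Meis2 and Ebf1 were -0.05, -0.01 and -0.04.

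The transmitter genes were expressed in 5 of 6 cases. Gad1 and Gad2, which make the GABA-synthesizing enzymes, ranged from 1691 to 1949.6 in WT and from 1743 to 2192.5 in Lrp5-/-, and from 315 to 412 in WT and from 399 to 423 in Lrp5-/-. The groups overlapped for both (log2 fold changes 0.08 ± 0.11 (SE) and 0.18 ± 0.11 (SE)). Slc32a1, the transporter that loads GABA and glycine into vesicles, ranged from 3488 to 4196 in WT and from 3451 to 3819 in Lrp5-/- (log2 fold change -0.07 ± 0.10 (SE)). Chat and Slc18a3 make acetylcholine and load it into vesicles in starburst amacrine cells, and they form 1 locus on chromosome 14 of build GRCm38.p6, where Slc18a3 (chr14:32462437-32464850) lies inside Chat (chr14:32408203-32465909). Chat signals were 162, 176 and 161.5 in WT and 161, 134 and 139 in Lrp5-/-. The highest Lrp5-/- retina was less than 1 unit below the lowest WT retina (log2 fold change -0.21 ± 0.10 (SE), n = 3 per group, unadjusted p = 0.0580, limma). Slc18a3 overlapped, with 84.0 to 119 in WT and 85.6 to 106 in Lrp5-/- (log2 fold change -0.04 ± 0.13 (SE)), and which transcripts the probes of this nested pair can bind was not determined.

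Of the calcium-binding proteins, Calb2 (calretinin, of many amacrine and some ganglion cells) ranged from 4693 to 5759.9 in WT and from 5020 to 5151 in Lrp5-/-, with a log2 fold change of 0.02 ± 0.10 (SE). Pvalb (parvalbumin, of AII amacrine and ganglion cells in rodents) gave 99.3, 101 and 96.1 in WT and 75.0, 100.3 and 88.6 in Lrp5-/-. A single Lrp5-/- retina reached the WT range, and the log2 fold change was -0.18 ± 0.11 (SE). Several expressed probes were present for 14 of the 30 genes, and in 10 of these the probes of 1 gene had log2 fold changes of opposite sign, all between -0.16 and 0.20. None of the 37 genes lies on chromosome 19, which holds Lrp5.

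Much of the spread in the bipolar genes came from WT replicate 1, which was low for most of the ON cascade genes. Taking each gene as its log2 signal minus its mean over the 6 arrays, the median over the 6 cascade genes was -0.391 on WT replicate 1, 0.222 and 0.337 on WT replicates 2 and 3, and -0.102, 0.091 and -0.074 on the Lrp5-/- arrays. Over all expressed genes the same median on WT replicate 1 was 0.019. WT replicate 1 was the lowest of the 6 arrays for 4 of the 6 cascade genes, where it was the lowest for 24.9% of all genes, and the remaining pair, Grm6 and Gng13, had their lowest values in Lrp5-/- retinas. On WT replicate 1 Grm6 was close to its mean, at -0.005, and Scgn stood at -0.524. The bipolar transcription factors, by contrast, had a median of 0.048 on this array, with Lhx4 low and Otx2 high, and the amacrine and horizontal genes 0.006. Within that class, the transmitter genes were low there too, with a median of -0.172 over 5 genes. Gad1, Gad2 and Slc18a3 had their lowest values on this array, while Chat did not, so the low signals were not limited to bipolar genes. The amacrine and horizontal transcription factors had a median of 0.039.

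**Figure D3:**
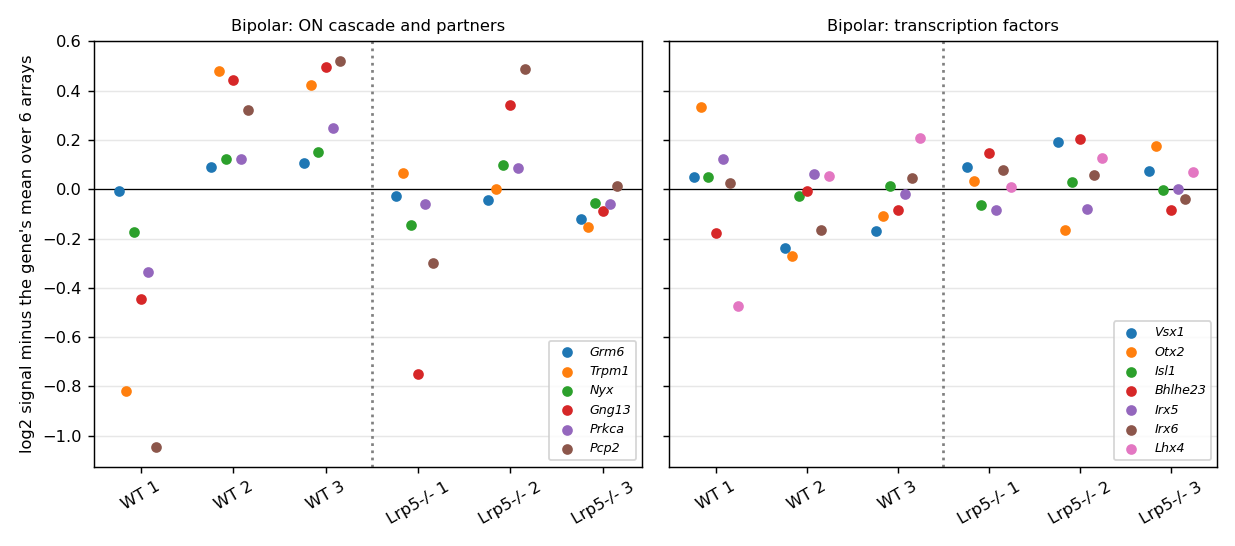
Log2 signal minus the gene's mean over the 6 arrays, for the ON cascade genes (left) and the bipolar transcription factor genes (right), each point 1 gene on 1 array. On WT replicate 1 all 6 cascade genes lie below zero, Grm6 barely so (-0.005) and Trpm1 and Pcp2 lowest. The transcription factor genes lie on both sides there.

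Further genes of these cell types, not among the 37, moved with that array. Over 6 more genes of the ON cascade (the G protein genes Gnao1, Gnb3 and Gnb5 and the regulators Rgs7, Rgs11 and Rgs7bp) the median on WT replicate 1 was -0.170, and over 8 further bipolar genes it was -0.184. The 14 further amacrine genes expressed had a median of 0.022 on WT replicate 1 and of -0.047 to 0.019 on the other arrays. That median hides movement both ways, since WT replicate 1 was the lowest array for 6 of the 14 and the highest for 6. A list of dividing progenitor genes moved the opposite way, with a median of 0.454 on WT replicate 1 against -0.222 to 0.124 on the other arrays. Of its 5 expressed genes 3 were highest there, where 31.5% of all genes were. Ccnd1, a cyclin of retinal progenitors, had a signal of 4035 on WT replicate 1 and 1664, 1549.7, 1823, 1913 and 2469 on the others. The summed signal of the 5 genes ranged from 2073 to 4679 in WT and from 2326 to 3053 in Lrp5-/-. Rod genes were split on that array, Nrl being the highest of the 6 at 20686 and Gnat1 the lowest at 3556 against 5982 to 12679. Their median there was -0.057. For cone genes it was -0.045, and 4 of 8 had their lowest value on that array. A list of pigment epithelium and melanocyte genes, 4 of them expressed, differed widely between arrays. Its medians were 0.557, -0.552 and 0.685 on the WT arrays and -0.527, -0.64 and 0.449 on the Lrp5-/- arrays. Whether such tissue had a part in the Otx2 signals was not tested. After quantile normalization of the unnormalized signals, the medians on WT replicate 1 were -0.445 for the cascade genes, -0.232 for the transmitter genes and 0.458 for the progenitor genes. They were then -0.309 for the rod genes, with 5 of 7 lowest there, and -0.094 for the cone genes, so photoreceptor genes were low there too. The part of the dim array or of the progenitor genes in the low bipolar signals was not tested.

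**Figure D4:**
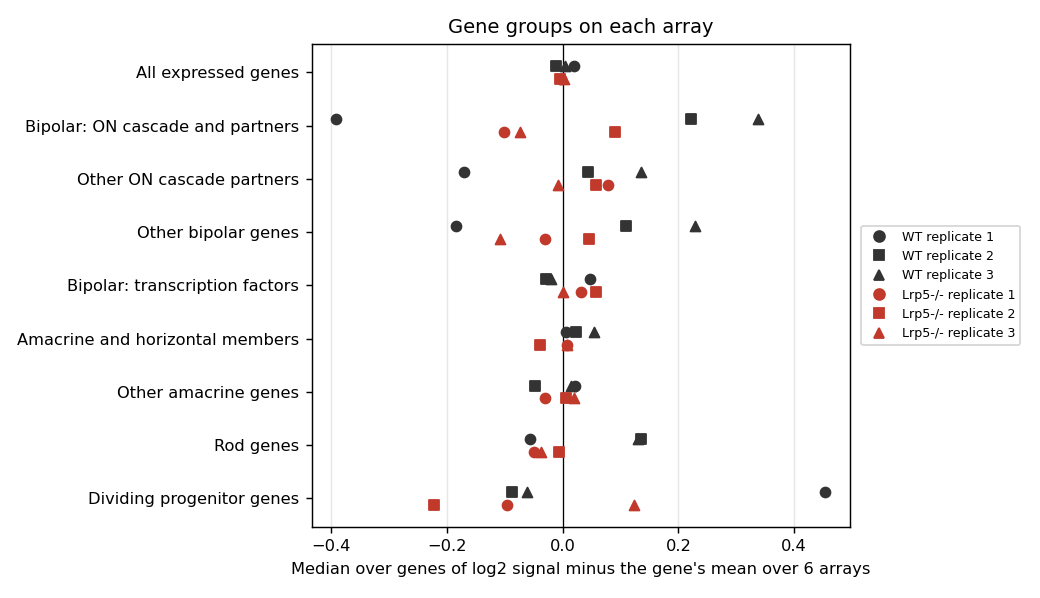
Median over the genes of each list of the log2 signal minus the gene's mean over 6 arrays, with 1 symbol per array. WT replicate 1 lies at -0.391 for the ON cascade genes and at 0.454 for the dividing progenitor genes, and at 0.019 for all expressed genes.

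Without WT replicate 1, which leaves 2 WT and 3 Lrp5-/- retinas, the cascade genes all had negative log2 fold changes. WT replicate 1 held the lowest WT signal of each of the 6 genes, so leaving it out could only lower these values. The array was singled out for its low signals in the same genes. The values that follow therefore describe how much rests on it and are not a test of a difference in the cascade genes. The median over the 6 genes was -0.2747, and over all expressed genes 0.0013, with 49.5% of genes below zero. The log2 fold change was -0.48 ± 0.09 (SE) for Trpm1, -0.63 ± 0.23 (SE) for Gng13, -0.35 ± 0.18 (SE) for Pcp2, -0.20 ± 0.09 (SE) for Prkca, -0.17 ± 0.10 (SE) for Nyx and -0.16 ± 0.08 (SE) for Grm6. None passed the test, the smallest adjusted p being 0.0654 for Trpm1 (limma), where 0.577% of all genes did. At an unadjusted p under 0.05, Trpm1 and Gng13 were lower and Vsx1 higher (0.32 ± 0.09 (SE), adjusted p = 0.234) among the bipolar genes, and Lhx1 (-0.35 ± 0.08 (SE), adjusted p = 0.151) and Chat (-0.23 ± 0.10 (SE), adjusted p = 0.611) were lower among the amacrine and horizontal genes, 5 of 30 beside 9.05% of all genes (5.24% on the lower side). Over all 14 bipolar genes the median was -0.1201, with 10 below zero, and over the 16 amacrine and horizontal genes -0.0309, with 9 below zero. The 6 further cascade genes were on both sides of zero, 3 below and 3 above, with a median of -0.015. All 8 further bipolar genes were below zero, with a median of -0.2034, and 1 of them, Kcng4, a potassium channel subunit, passed the test (log2 fold change -0.56 ± 0.10 (SE), adjusted p = 0.0386). Its signal was low, and it was detected on 2 of 3 WT arrays. The value left out, 60.2, was the only WT value below the Lrp5-/- retinas, so this pass rests on leaving it out. Photoreceptor genes shifted in the same comparison. The median was -0.1725 over 7 rod genes, 5 of them below zero, and -0.182 over 8 cone genes, 6 of them below zero. Pde6a, a rod phosphodiesterase subunit, passed the test (log2 fold change -0.87 ± 0.11 (SE), adjusted p = 0.00613). The Pde6a value left out, 565.5, was the only WT value below the Lrp5-/- retinas, so this pass rests on leaving it out too. With all 6 arrays the adjusted p of Pde6a was 0.987 (limma). The cone arrestin gene Arr3 also passed (-0.68 ± 0.09 (SE), adjusted p = 0.0114), and it did so with all 6 arrays (adjusted p = 0.0329, limma). The size of the difference in the cascade genes thus depended on this 1 WT array, and some signs depended on other arrays too. Pcp2 turned negative without WT replicate 1, and also without Lrp5-/- replicate 2. Trpm1 and Prkca turned positive without WT replicate 2, WT replicate 3 or Lrp5-/- replicate 3, and Prkca also without Lrp5-/- replicate 1. With 2 WT retinas, the spread of that group was taken from all 5 arrays.

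With all 6 arrays, none of the further interneuron genes passed the test. The median log2 fold change was 0.0763 over the 6 further cascade genes, and the largest values were 0.26 for Gnao1, the alpha subunit of the cascade's G protein, and 0.15 for Rgs11, which speeds its deactivation. Gnao1 signals were 1191, 1784 and 1964 in WT and 2099.9, 2026 and 1684 in Lrp5-/-, again lowest on WT replicate 1. Over the 8 further bipolar genes the median was -0.0991, with Kcng4 at -0.32 ± 0.17 (SE) and Fezf2, a transcription factor of bipolar precursors, at -0.18 ± 0.11 (SE). Kcng4 signals were 60.2, 90.7 and 108 in WT and 69.7, 66.5 and 65.7 in Lrp5-/-, so that WT replicate 1 fell below and the other WT retinas above all Lrp5-/- retinas. Over the 3 further horizontal genes expressed the median was -0.011, with -0.12 for Onecut3 and 0.03 for Gja10.

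The median log2 fold change of the 14 further amacrine genes expressed was 4e-04. Of these, 2 had an unadjusted p under 0.05 (limma), both higher in Lrp5-/-, beside 5.02% of all genes (2.08% on the higher side). Prdm13, a zinc finger factor downstream of Ptf1a in amacrine development, had signals of 341, 381.5 and 362 in WT and 422, 442 and 460.0 in Lrp5-/-. All Lrp5-/- retinas lay above all WT retinas (log2 fold change 0.29 ± 0.09 (SE), n = 3 per group, unadjusted p = 0.00806, adjusted p = 0.777, limma). Nr4a2, a nuclear receptor of some amacrine cells, gave 68.2, 79.6 and 74.1 in WT and 90.4, 87.7 and 88.1 in Lrp5-/- (log2 fold change 0.27, adjusted p = 0.855). Its signal was low, and it was detected on 2 of 3 WT arrays. Without WT replicate 1 the log2 fold changes were 0.25 and 0.21. Since the groups of both genes did not overlap, leaving out an array could not change their order.

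Lists for other cells of the retina gave the setting of these values. Of 8 endothelial genes, Cldn5 and Cd93 passed the test, both lower in Lrp5-/-, and the median log2 fold change of the list was -0.4121. At an unadjusted p under 0.05 and with groups that did not overlap, Robo4 (-0.63), Tek (-0.56), Pecam1 (-0.27) and Cdh5 (-0.21) had lower values in Lrp5-/- and Emcn (0.25) higher ones, with adjusted p from 0.0566 to 0.987. The summed endothelial signal was 1522 to 1801 in WT and 733 to 824 in Lrp5-/-, and most of that gap was in Cldn5 alone, at 614 to 791.5 in WT and 70.9 to 86.2 in Lrp5-/-. The same rule named Pdgfra among the astrocyte genes (log2 fold change -0.28, adjusted p = 0.847) and Hes1 among the progenitor genes (-0.25, adjusted p = 0.966). For the 14 bipolar genes the summed signal was 31280 to 33360 in WT and 30620 to 31980 in Lrp5-/-, and for the 16 amacrine and horizontal genes 20680 to 22690 and 20860 to 22150, with overlapping groups in both. Such sums weigh the brightest probes most, Otx2 and Isl1 in the bipolar list, and opposite moves cancel in them. In WT the bipolar transcription factor sum ranged from 16690 to 20830 and the cascade sum from 10190 to 14270. WT replicate 1 was the highest of WT in the first and the lowest in the second. Of 8 cone genes, Arr3 alone passed the test, with lower signals in Lrp5-/-, and with all 6 arrays none did among 7 rod, 6 ganglion cell, 8 Müller glia and 7 microglial genes.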

How the data were processed

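Total retinal RNA of 6 mice (3 per group) was labelled with biotin, hybridized and stained with streptavidin-Cy3. The authors deposited probe intensity before normalization and after rank invariant normalization in Bead Studio, without background subtraction, with a detection p-value for each probe against the negative control beads of its array. The deposited normalized intensity was set to at least 16 and taken to log2. Probes with a detection p-value under 0.05 on at least 3 of 6 arrays (20721 of 45281) were fitted with limma 3.58.1 (lmFit and eBayes) in R 4.3.3, and p-values were adjusted over all of them by Benjamini-Hochberg. Where a gene had several expressed probes, the brightest on average over the arrays (log2 scale) stood for it, with symbols from the platform annotation (34885 probes with 1 symbol, 18 with several and 10378 with none, which are unnamed here). Normalized signals were used since the authors compared them, without a block; SAM, their test, permutes samples and was not run. All 37 genes are reported, and of the further lists the genes with an unadjusted p under 0.05 and groups that do not overlap or, in the interneuron lists, the 2 with the largest fold changes. The members, lists and rules were chosen with earlier results of these data known. The alternatives were other normalizations, filters, offsets, tests and each array left out in turn. The fit was also run on simulated data, with independent noise of the same spread on every array. That run does not cover an array that deviates more than the others, as WT replicate 1 did. Slide positions were not given in the sources used here, so arrays on 1 slide could not be taken as a block. The number of arrays limits the precision.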

Additional observations from a re-analysis of the deposited data

How the results depend on the processing

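No bipolar, amacrine or horizontal gene passed an adjusted p of 0.05 under any of 19 alternatives, the adjusted p ranging from 0.0654 to 1. Of the 30 genes, 12 kept the sign of their log2 fold change under all of them and 18 did not. The count of probes past the threshold was 24 in limma and 10 after scaling arrays to the same median, 2 with no normalization, 11 with 50 added to each signal, 98 with array weights and 0 with the methods' t-test, where 1127 probes had an unadjusted p under 0.05. At an unadjusted p under 0.05 the count was 1006 probes, and 33 with no normalization, 2017 with no filter on detection, 1748 with array weights and 549 with 1 probe per gene. Bipolar genes at that threshold numbered 0 after scaling to the same median or with no normalization and 3 with array weights. Amacrine and horizontal genes numbered 1 with 50 added or with no filter and 3 with array weights. With no normalization the median log2 fold change was 0.1347 over bipolar and 0.0077 over amacrine and horizontal genes. With each array left out in turn, 10 to 85 probes passed the adjusted and 669 to 1677 the unadjusted threshold, with 0 to 3 bipolar and 0 to 2 amacrine and horizontal genes at the unadjusted one. The highest counts came without WT replicate 1. The bipolar median, 0.0028 with all arrays, ranged from -0.1201 (without WT replicate 1) to the 0.1347 above. The cause was not tested for any of these shifts. Same-numbered arrays of the groups did not deviate together (r = -0.211, -0.150 and -0.279, against 0 to 0.206 for the other pairs). With 3 arrays per group this cannot settle whether the numbers pair samples. With the replicate block 13 probes passed and no interneuron gene did. Values near the signal of undetected probes, such as those of Ptf1a, carry little information on fold changes.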
